A study of Gallus gallus with 2 samples.

Results

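The genes described here are 6 genes of chicken sphingolipid synthesis around UGCG, the glucosylceramide synthase: UGCG, SPTLC1, SPTLC2, SGMS1, SGMS2 and UGT8, out of 13008 named genes on the array. Every probe set annotated with one of these symbols alone was taken, 11 of 38535 in the table. Their NCBI gene IDs are, in the same order, 427335, 426145, 423379, 378907, 422529 and 374033. The set was chosen from values of these same arrays, because the UGCG ratio was among the highest measured, so the UGCG values are a description and no support is drawn from them. The study compared laying hens whose bursa of Fabricius, the organ in which birds form B cells, had been surgically removed on day 17 to 18 of incubation (Bx) with control hens, and it screened for genes raised in oocytes of birds that lack IgY, the avian counterpart of IgG. The sources used here give neither the strain nor whether control hens had a sham operation. Both groups were sampled at 25 weeks of age from the germinal disc region, the spot on the yolk that holds the oocyte nucleus, of yellow follicles ranked F5 to F7. RNA of 9 discs from 3 birds was pooled per group and hybridised to 1 Affymetrix Chicken Genome Array per group. Neither group was replicated, so differences were not tested and no p-value or error over birds is given. An SD below is always a spread between probe sets or genes on these arrays.

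Sphingolipids are membrane lipids built on a long-chain base. Serine palmitoyltransferase, formed by the SPTLC1 and SPTLC2 subunits, joins serine to a fatty acyl chain in the first and rate-limiting step, and later enzymes turn the product into ceramide. Ceramide is then used by competing enzymes: SGMS1 in the Golgi and SGMS2 mainly at the plasma membrane make sphingomyelin, UGCG adds glucose and so opens the route to gangliosides and other complex glycolipids, and UGT8 adds galactose to make the galactosylceramide of myelin. These roles are known mainly from mammals.

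The values are MAS5 signals, a linear brightness per probe set, as the authors scaled them. A signal was treated as measured only above a background floor, the 95th percentile of the 746 probe sets that carry neither a chicken nor a control prefix. The control array had a floor of 42.6, the Bx array one of 36.4, and 10168 genes had their brightest probe set above it on both arrays. Ratios are Bx over control on the log2 scale. Their scatter grew as signal fell: the SD of the ratio over genes was 0.49 in the dimmest of 4 equal brightness groups (mean signal 40.2 to 180) and 0.31, 0.21 and 0.15 in the next 3. Signals of different probe sets depend on their probes, so the 6 genes are not ranked by level.

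UGCG was the only one of the 6 genes past 2-fold, but its 3 probe sets did not move together. On the brightest by mean signal, the value was 44.4 in control discs and 191 in Bx discs, 4.30-fold higher in Bx (log2 ratio 2.10). On the next it was 44.6 in control discs and 55.6 in Bx discs, a log2 ratio of 0.32. The remaining probe set, dimmest by mean signal, went the other way, from 65.7 in control discs to 18.5, under the floor, in Bx discs, at least 1.81-fold lower when set against that floor. A bound of 1.5-fold or more on the lower side was found for 17.8% of the 2823 named probe sets above the floor on 1 array alone. In Bx discs UGCG therefore had 1 probe set past 2-fold higher, 1 under 1.5-fold and 1 past 1.5-fold lower.

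**Figure D1:**
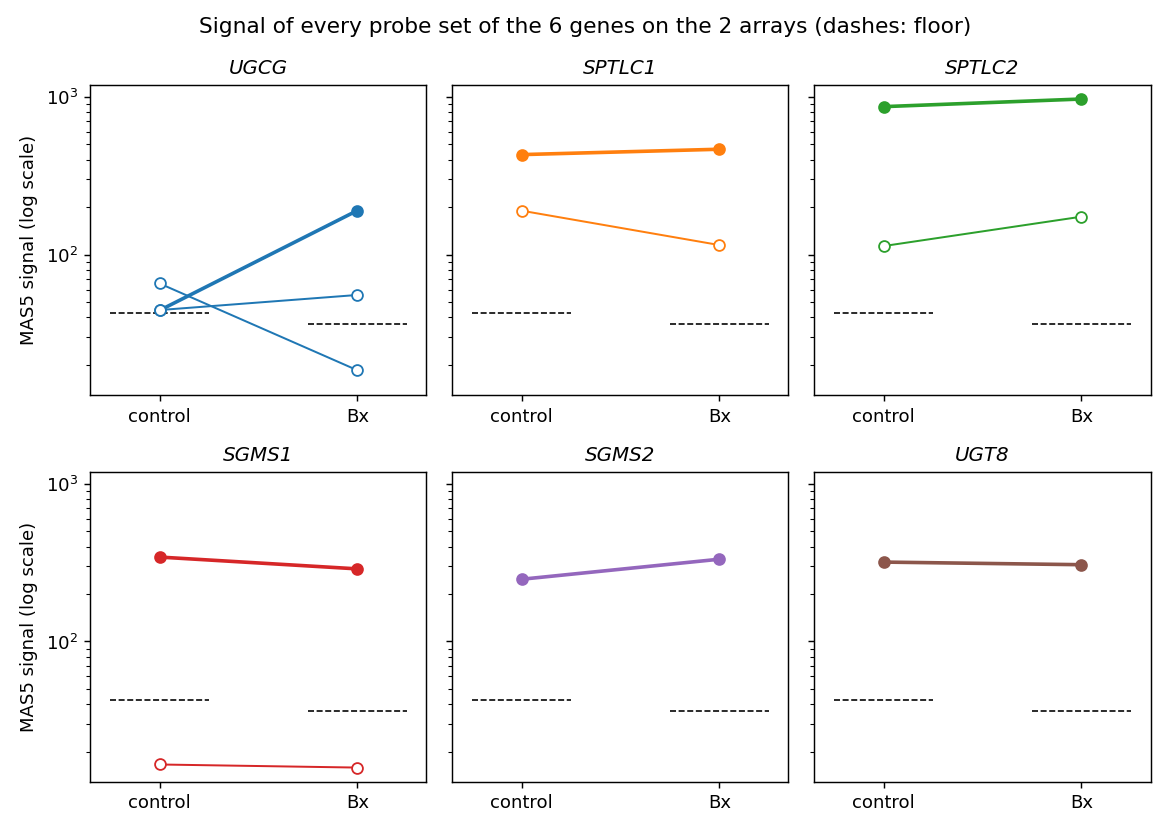
MAS5 signal (log axis) of each of the 11 probe sets on the control and the Bx array, 1 panel per gene. Filled points and thick lines mark the probe set that gives the gene its value, open points the others, and dashes the floor of 42.6 (control) and 36.4 (Bx). The 3 UGCG lines start close together near the control floor and end at 191, 55.6 and 18.5.

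All 3 UGCG signals in the control pool lay close to the background. The probe set brightest by mean signal was the dimmest of the 3 on the control array, so its Bx signal made it the gene's value. It was 1.04 times the control floor, and 34 of the 746 non-chicken probe sets (4.56%) were at least as bright on that array. On the Bx array the same probe set was 5.23 times the floor, with 1 non-chicken probe set at least as bright. The fold of 4.30 therefore divides a signal well above the floor by one barely above it. The lower-going probe set was at 1.54 times the control floor. In the Bx pool 184 of the 746 non-chicken probe sets (24.7%) were at least as bright as it.

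Taking UGCG as the mean over the pair measured on both arrays gave a log2 ratio of 1.21 ± 1.26 (SD, 2 probe sets). With the lower-going probe set included and its Bx value set to the floor, the mean over 3 probe sets was 0.52. The gap between this pair was 1.79 log2 units. Among 4870 genes with 2 or more measured probe sets, 30 (0.616%) had a gap that wide, and among the 566 such genes of the dimmest group 7 (1.24%) did. UGCG was chosen for the high ratio of its brightest probe set, and that choice by itself favours a wide gap. The genes it is set against were not chosen in this way, so nothing is read from these shares. In Bx, 117 genes had a probe set at least 2-fold higher and another seen on either array. Of these 117 genes, 17 (14.5%) had another at least 1.5-fold lower. The 3 probe sets are assigned to UGCG by an old platform annotation. Without probe sequences it was not tested whether each of them reads UGCG, or which region of its transcript, so each value is that of a probe set annotated as UGCG.

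**Figure D2:**
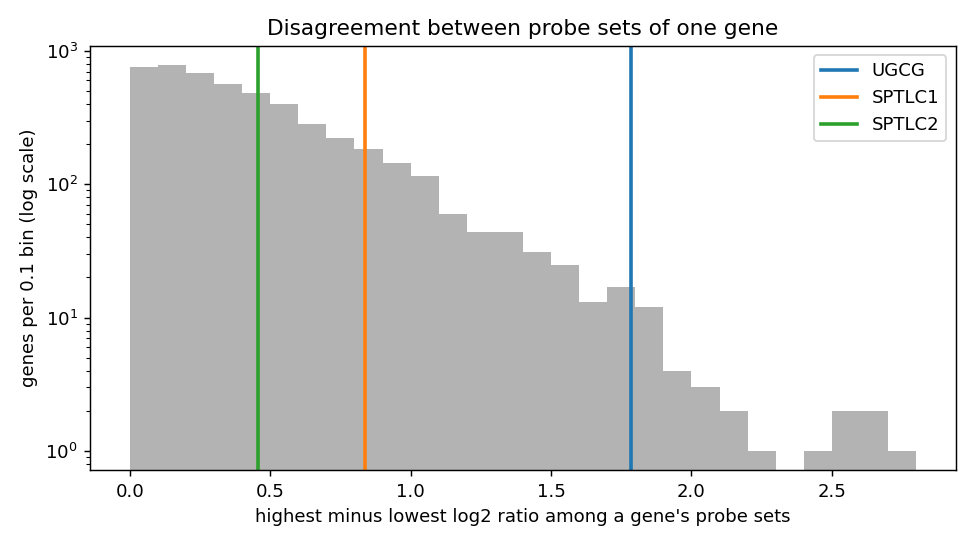
Histogram of the gap between the highest and the lowest log2 ratio among the probe sets of one gene, for the 4870 genes with 2 or more measured on both arrays (genes per bin on a log axis). Vertical lines mark UGCG at 1.79, SPTLC1 at 0.84 and SPTLC2 at 0.46.

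The subunits of serine palmitoyltransferase were nearly level on their brightest probe sets. SPTLC1, the subunit that anchors and stabilises the enzyme, had a signal of 431 in control discs and 467 in Bx discs, a log2 ratio of 0.11. Its dimmer probe set had 190 in control discs and 115 in Bx discs, 1.65-fold lower in Bx (log2 ratio -0.72). The direction for SPTLC1 is thus not settled, and its mean over both probe sets was -0.31 ± 0.59 (SD). Opposite directions were common on these arrays, in 2654 of those 4870 genes (54.5%), and 13.1% of them had a gap at least as wide as the 0.84 of SPTLC1.

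SPTLC2, the subunit that carries the catalytic lysine, went the same way on both probe sets. The brighter one gave 869 in control discs and 971 in Bx discs, a log2 ratio of 0.16, against an SD over genes of 0.21 in its brightness group. On the dimmer one it was 113 and 174, 1.54-fold higher in Bx. The mean over both was 0.39 ± 0.32 (SD). The brighter probe set has an ID ending in _s_at, which marks probes that can match more than one transcript, so the dimmer one gives the gene's value, 0.62, when such probe sets are left out.

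The enzymes that consume ceramide beside UGCG differed little between the pools. SGMS2, the plasma membrane sphingomyelin synthase, had 248 in control discs and 332 in Bx discs on its only probe set, 1.34-fold higher in Bx (log2 ratio 0.42). SGMS1, the Golgi sphingomyelin synthase, had 343 and 289, 1.19-fold lower in Bx (log2 ratio -0.25). The SD over genes in the brightness group of both was 0.31, so the SGMS1 ratio was smaller than that scatter and the SGMS2 ratio a little larger. The other SGMS1 probe set was under the floor on both arrays, with 16.6 in control discs and 15.9 in Bx discs, and gives no ratio. The SGMS1 probe set that was measured also ends in _s_at, and without it SGMS1 has no measured value. UGT8, the galactosylceramide synthase, had 319 in control discs and 307 in Bx discs, a log2 ratio of -0.06, the smallest of the 6 genes.

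Over the 6 genes, 4 were higher and 2 lower in the Bx pool, with a median log2 ratio of 0.14 against 0.01 over all 10168 genes, of which 52.4% were higher in Bx. UGCG, chosen for its high ratio, is 1 of the 4 and enters the median, so neither is read as a result. It was also the only 1 of the 6 past 2-fold, and the rule chose it for that, so nothing is read from this count. Over all genes 0.639% were at least 2-fold higher in Bx and 1.06% were past 2-fold either way. Without UGCG, all 5 other genes stayed under 1.5-fold, a size that 7.74% of all genes passed. Of the 11 probe sets, 9 were measured on both arrays, 1 on the control array alone and 1 on neither. Among the 9, the 3 past 1.5-fold (1 each of UGCG, SPTLC1 and SPTLC2) were among the 4 whose mean signal lay in the dimmest range, where 22.9% of genes passed 1.5-fold. Over all named probe sets measured on both arrays, 9.76% did. The 22.9% counts genes by their brightest probe set, not all probe sets. The UGCG probe set behind the choice is among the 3, so nothing is read from this count. The 5 brighter probe sets all stayed under 1.5-fold. They lay in the next 2 brightness groups, where only 6.22% and 1.49% of genes passed it, so nothing is read from this count.

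**Figure D3:**
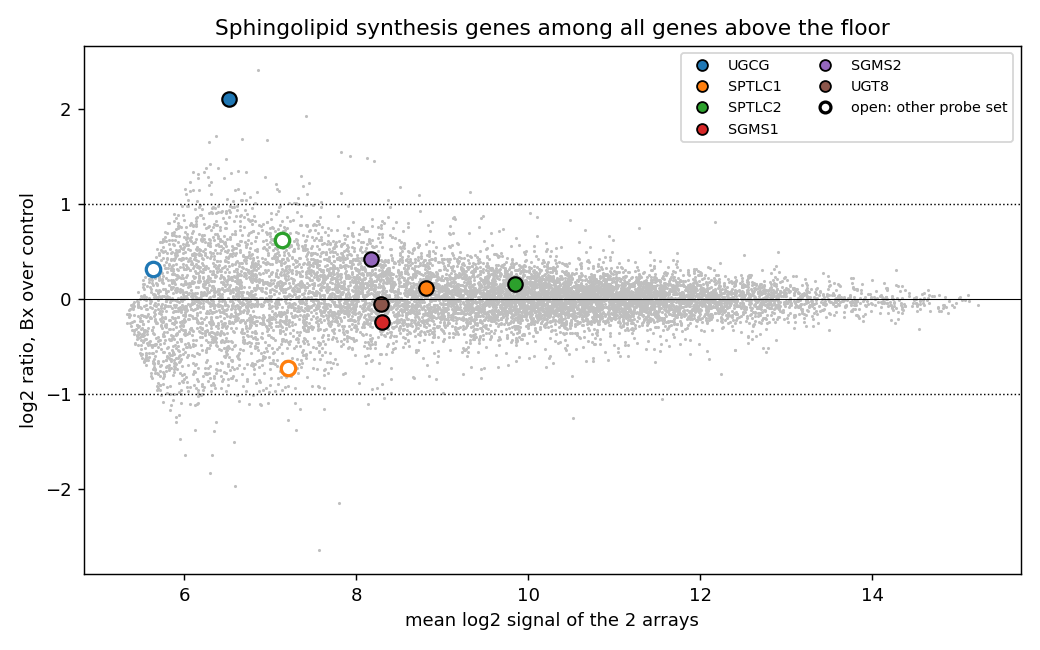
Log2 ratio of Bx over control against the mean log2 signal of the 2 arrays. Grey points are the 10168 genes above the floor on both arrays, filled points the values of the 6 genes, open points their other measured probe sets, and dotted lines mark 2-fold. UGCG at 2.10 lies above the cloud at low brightness, and the other 5 filled points lie between -0.25 and 0.42.

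The rest of the sphingolipid pathway was followed with a list of 76 genes, of which 65 were on the array under the names used and 54 were above the floor on both arrays. None of the 54 was past 2-fold, 1 was at least 1.5-fold higher in Bx (4.11% of all genes were) and 3 at least 1.5-fold lower (3.63%). Together that is 7.41% past 1.5-fold, against 7.74% of all genes, so the list was near the background. Of the 54, 28 were higher and 26 lower in the Bx pool, with a median log2 ratio of 0.04. All 4 genes past 1.5-fold were in the dimmest brightness group, as UGCG was.

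Of the 5 measured genes that act on serine palmitoyltransferase, 2 were among these 4, on opposite sides. Both lay in the dimmest group, where 22.9% of genes passed 1.5-fold, and nothing is read from a count in so short a list. SPTSSB, a small activating subunit, had 174 in control discs and 93.1 in Bx discs (log2 ratio -0.91), and both of its probe sets were lower in Bx, with a mean of -0.88 ± 0.04 (SD). SPTLC3, an alternative catalytic subunit, had 54.1 and 99.8, 1.84-fold higher in Bx on its only probe set above the floor. SPTSSA, the other small subunit, was under the floor on both arrays. The ORMDL proteins, which restrain the enzyme, were near level: ORMDL2 had a log2 ratio of 0.23, ORMDL3 0.06 and ORMDL1 -0.14.

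Among the genes that finish ceramide, CERS1, a ceramide synthase, had 142 in control discs and 79.2 in Bx discs, a log2 ratio of -0.84 on 1 probe set. CERS6 had 0.25, and CERS4 also 0.25 with its other probe set on the opposite side. The bright members of this step were close to level, with CERS5 at 2596 and 2544 (log2 ratio -0.03) and DEGS1, the desaturase that makes ceramide from dihydroceramide, at 1368 and 1169 (-0.23). COL4A3BP, the CERT protein that carries ceramide to the Golgi for sphingomyelin synthesis, had 230 and 156, a log2 ratio of -0.56, and its 3 probe sets above the floor were all lower in the Bx pool, with a mean of -0.39 ± 0.15 (SD). PLEKHA8, the FAPP2 protein that moves glucosylceramide within the Golgi, had 79.5 and 115 (0.53), and GLTP, a glycolipid transfer protein, 200 and 266 (0.42), each on 1 probe set.

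On the list of glycolipid extension, 11 genes were measured. Not all of them act downstream of UGCG, since FA2H (log2 ratio 0.18) and GAL3ST1 (0.19) are among them. Of the 11 genes, 0 were at least 1.5-fold higher in Bx (4.11% of all genes were) and 1 was at least 1.5-fold lower (3.63%). Both counts are near the background for a list of this size. B4GALT5, which turns glucosylceramide into lactosylceramide, had 280 in control discs and 365 in Bx discs, a log2 ratio of 0.38. B4GALT6, the enzyme with the same role, had -0.20, with 2 of its 3 probe sets lower in the Bx pool. ST3GAL5, which makes the ganglioside GM3, had -0.18, with 3 of its 4 probe sets lower in the Bx pool. ST8SIA1, which makes GD3, was level at 1100 and 1097. ST8SIA5, a sialyltransferase of more complex gangliosides, had 70.4 and 38.1 (-0.89), the Bx value just above the floor of 36.4. GBGT1, the Forssman glycolipid synthase, had 129 and 183 (0.51).

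Among genes listed under sphingolipid breakdown, 0 of 10 measured for glycolipids and 0 of 6 measured for sphingomyelin passed 1.5-fold. With 7.74% of all genes past it, lists this short would hold about as few, and the counts are not read as a result about these genes. HEXA, the alpha chain of hexosaminidase, had a log2 ratio of 0.35 with both probe sets higher in the Bx pool, GM2A, the GM2 activator, 0.31, and GLA, alpha-galactosidase A, -0.33, with its 2 other probe sets higher. GBA2, a glucosylceramidase that acts on the product of UGCG, had 782 in control discs and 931 in Bx discs (0.25). For sphingomyelin, SMPD3, a neutral sphingomyelinase, was at 0.34 and SMPD1, the acid one, at -0.19. SMPDL3A, listed for its name and not as an established sphingomyelinase, was at 0.40, with its other probe set on the opposite side. ENPP7, an alkaline sphingomyelinase, had 59.3 in control discs and 36.3, under the floor, in Bx discs, at least 1.63-fold lower against that floor. CERK, the ceramide kinase, had 944 and 706 (-0.42), ASAH1, the acid ceramidase, 0.23, and ACER2, a Golgi ceramidase, -0.22. For sphingosine 1-phosphate, the receptor gene S1PR1 had 807 and 584 (-0.47), the exporter MFSD2B -0.42 and the phosphatase SGPP2 0.27.

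**Figure D4:**
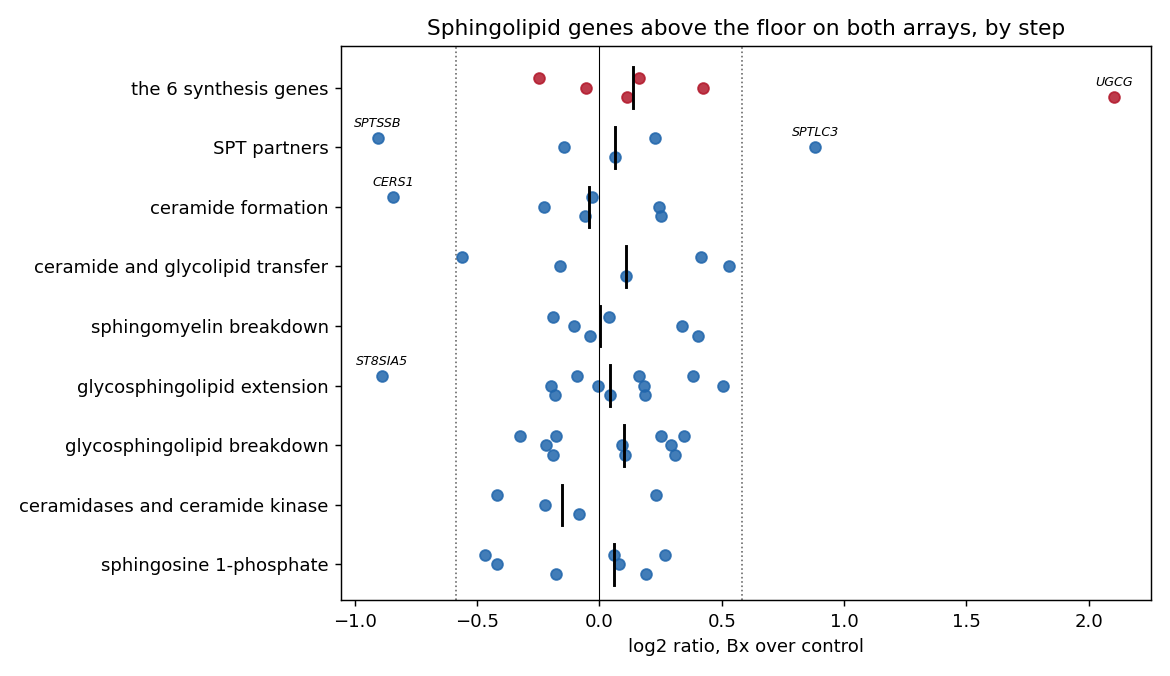
Log2 ratio of Bx over control for the 6 synthesis genes (red) and the 54 other sphingolipid genes above the floor (blue), 1 row per step, with a bar at each median and dotted lines at 1.5-fold. Only genes past 1.5-fold are named, and UGCG at 2.10 lies apart from the others, which run from -0.91 to 0.88.

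Markers of the cells in the sample also differed between the pools. Over all genes 52.4% were higher in Bx, with a median log2 ratio of 0.01. Of 14 granulosa markers, all above the floor, 13 were lower in the Bx pool, with a median log2 ratio of -0.26 and a summed signal of 126576 in control discs and 113990 in Bx discs. These directions are those of the brightest probe set. INHA (-0.02), FST (-0.01) and ZP3 (-0.03) were near level. AMH, INHA and FST each had 1 measured probe set higher and 1 lower in Bx, so their direction is not settled. Of these 14 markers, 0 passed 1.5-fold in either direction, against 7.74% of all genes. Most of the 14 lay in the brightest group, where 0.354% of genes passed it, so nothing is read from this count. Of 10 oocyte and germ cell markers on the array 9 were measured, with a median of 0.14. The sums were 4419 (control) and 5166 (Bx), mostly DAZL (2743 and 3027). Past 1.5-fold were 2 higher (DDX4 and GTSF1) and 1 lower, 33.3% of the 9 against 7.74% of all genes. Nothing is read from a count in so short a list. Of the 9, 8 were higher in the Bx pool. The lower one was TDRD1, at a log2 ratio of -0.66 with all 3 probe sets lower in Bx. MAEL was under the floor on both arrays. The granulosa and oocyte markers show both cell types in a sample labelled as oocytes, and in such a bulk sample fewer cells of a type and less RNA per cell cannot be told apart. Sums are compared here only between the pools for the same list, not between lists, since they depend on the probes. They run over every listed gene on the array, with signals under the floor included, while the medians cover only genes measured on both arrays. For theca, fibroblast and smooth muscle the sums were 2709 (control) and 2507 (Bx), with 7 of 12 markers measured, a median of -0.18, and COL1A1 and LUM under the floor on both arrays. Of these 7, 2 were higher and 5 lower in Bx, with CYP17A1 1.87-fold higher and PDGFRA 1.94-fold lower. Of the rest of that list ACTA2 was at least 2.0-fold and DCN at least 1.59-fold lower in Bx, both seen in the control pool alone. CYP19A1 was seen in the Bx pool alone, at 37.5, which is below the control floor of 42.6 and gives no bound. For endothelium the sums were 736 and 798, with 6 of 8 measured, a median of 0.44, and TEK under the floor. Of these 6, 4 were higher and 2 lower in Bx (CDH5 at -0.52, and VWF at -0.35 with its other measured probe set higher). All 6 lay in the dimmest group, where the SD over genes was 0.49. KDR was seen in the Bx pool alone, at 37.0, below the control floor, and gives no bound. For leukocytes and thrombocytes the sums were 3579 and 2663, mostly CD74 (3182 and 2212). Here 4 of 9 were measured, with a median of -0.18, and PTPRC, CD4 and SPI1 were under the floor. CD79B, seen in the control pool alone, was at least 1.52-fold lower in Bx, and CD3E, seen in the Bx pool alone, at least 1.69-fold higher. Bounds of 1.5-fold or more were common among the 2823 named probe sets above the floor on 1 array alone. Of these, 17.8% were at least 1.5-fold lower and 13.8% at least 1.5-fold higher. A bound at least 2-fold lower, as for ACTA2, was found for 5.74%. Nothing is read from these single genes. For erythrocytes the sums were 190 and 213, with 2 of 3 measured, a median of 0.24, and SLC4A1 under the floor. The part of these shifts in the ratios of the sphingolipid genes was not tested.

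With 2 arrays, the likeness of another gene to UGCG can be measured only as the difference between their log2 ratios. The comparison uses the UGCG value of its brightest probe set, 2.10, and would differ with the mean over probe sets (1.21, or 0.52 with values under the floor set to it). The 5 nearest were ELN, the elastin gene (log2 ratio 1.93), ACSL6, which activates long-chain fatty acids (2.41), SEMA3G (1.72), DPYSL3 (1.68) and FAM129A (1.67). On this value UGCG ranked 2 of 10168 genes from the highest ratio. Its nearest genes are therefore other genes near the top, and nothing is read from their identity. All 5 lay in the dimmest brightness group, with control signals of 45.6 to 87.1. That group held 91 of the 108 genes past 2-fold either way, so nothing is read from this. The measured probe sets of ACSL6 lay up to 2.51 log2 units apart in ratio, and those of SEMA3G up to 2.06.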

How the data were processed

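Total RNA (100 ng per pool) was labelled by 3' in vitro transcription, per the labels' protocols. The deposited table gives, for each probe set, 1 linear intensity on each array, produced by the authors with MAS5 according to the submitters' processing notes (version and scaling target not given in the sources used here). Both arrays had a mean of 500.1 after trimming 2% at each end, so a change in total mRNA would not show. Intensities were used on the log2 scale with no pseudocount. Names came from GEO's annotation of the platform, possibly outdated (27166 of 37693 chicken probe sets with 1 symbol, 177 with several, 10350 with none), and gene IDs of the 6 genes gave the same symbols in the RefSeq table of GRCg7b. No coordinates are given, since no build is named for the array, and no sequences are printed. Each gene was given the value of its brightest probe set by mean log2 signal. The number of arrays, 1 per group, limits the precision. Named were every probe set of the 6 genes, the 3 largest ratios and all genes past 1.5-fold in each of 8 pathway steps, and the 5 genes nearest UGCG; SPTSSA, ORMDL1, ORMDL3, CERS5, DEGS1, B4GALT6, ST3GAL5, ST8SIA1, ENPP7 and GBA2 were added after their values were seen. The 6 genes, the lists and the alternatives were chosen with earlier results of these data known. Calculations used Python 3.11.15, pandas 2.3.3 and statsmodels 0.14.6 and were tested on simulated data. Alternatives were median centring, quantile normalization, loess (fraction 0.3), no floor, a floor at the 75th percentile of chicken probe sets (484 and 498), a pseudocount of 16, means over probe sets, leaving out _x_at, _s_at and _a_at probe sets, and thresholds of 1.5-fold and 3-fold.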

Additional observations from a re-analysis of the deposited data

How the results depend on the processing

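No paired analysis was possible because each group is 1 array. Median centring, quantile normalization, loess, no floor and a pseudocount of 16 kept the direction of all 6 genes and UGCG past 2-fold, at 1.77 to 2.10. The probe set rule mattered more. The mean over probe sets gave 1.21 for UGCG and -0.31 for SPTLC1. The mean with values under the floor set to the floor, chosen after seeing the data, gave 0.52 for UGCG, -0.31 for SPTLC1 and 0 of the 6 genes past 2-fold. Without _x_at, _s_at and _a_at probe sets SPTLC2 was at 0.62, SGMS1 had no value, and the pathway median log2 ratio was -0.076 over 42 genes. The pathway median was also below 0 with quantile normalization (-0.0077), loess (-0.0057) and the stricter floor (-0.017). It was above 0 in the other settings, at 0.0055 to 0.049, so its sign is not settled. With the stricter floor only SPTLC2 was still measured, and 0 of the 6 genes were past 2-fold. The pathway list had 4 genes past 1.5-fold, and 5 past 2-fold with no floor, where 11 more genes on the array entered with signals under it. Over all genes 65 were at least 2-fold higher and 43 lower in Bx, against 769 and 740 with no floor, 37 and 19 with the pseudocount and 0 and 2 with the stricter floor.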
